A study of Mus musculus with 6 samples.

Results

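The sarcomere, the contractile unit of striated muscle, is built from thin filaments of actin, thick filaments of myosin, and the giant spring titin between them. Troponin and tropomyosin sit on the thin filament and let myosin bind when calcium rises. Many of these proteins come in a fast and a slow version made from separate genes, and the tongue is a muscular organ built mostly of fast fibres. The 35 genes described here encode thin filament, thick filament, M band, titin, regulatory and muscle energy proteins. They were taken by symbol from the 55487 gene IDs of the count table, and all 35 were found.

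RNA was sequenced from 6 tongue grafts of B16F10, a pigmented mouse melanoma line, grown in wild-type C57BL/6J mice. Cervical lymph nodes had been injected 6 weeks before the graft with 1 of 2 vectors that travel back along axons: AAV2/retro-Trpv1-mCherry, with a red fluorescent protein, or, with an inhibitory designer receptor added, AAV2/retro-Trpv1-hM4D(Gi)-mCherry. The vector names carry Trpv1, a channel gene of nociceptive nerves, and deschloroclozapine, the drug that switches the receptor on, was given 2 times per day for 12 days. The 3 control grafts were labelled as vehicle-treated and the 3 inhibition grafts as having the nociceptive nerves of the lymph nodes inhibited, while the design text describes both vectors together with deschloroclozapine, so whether the controls also received it is unclear. Grafts were cleared of tissue that was not tumour before RNA extraction, and no age is stated for the mice. Values are listed below in the order of replicates 1, 2 and 3.

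Library totals lay between 14477277 and 20972494 counts. The label of melanoma was checked by 10 markers, all tested, with a summed level of 23696 to 31563 CPM (counts relative to library size after TMM scaling) in the control grafts and 30626 to 35746 CPM in the inhibition grafts. Muscle RNA was a smaller part of each graft, and in whole tissue more muscle cells and more RNA per muscle cell cannot be told apart. No label states that each graft came from its own mouse, and the p-values reflect only how far these libraries varied, which may in part be technical.

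The sarcomere genes stood higher in the inhibition grafts, by about the same fold for most of them, but none of the differences passed the test over all genes. Summed over the 35 genes, the level was 1885, 3080.0 and 2309.6 CPM in the control grafts and 5083, 4535 and 3670.1 CPM in the inhibition grafts. Without Tpm1 and Tpm3, tropomyosins that many other cells make, it was 937, 2012 and 1375 CPM against 3822, 3469 and 2555 CPM. In both sums every inhibition graft lay above every control graft.

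Of the 35 genes, 32 had enough counts to be tested and 3 (Tnnc2, Myl2 and Myl3) did not. With the quasi-likelihood test of edgeR, 0 of the 32 passed at an adjusted p under 0.05 (background 0.0383% of 15666 genes in either direction and 0.0319% higher), and the adjusted p ranged from 0.16 to 0.91. At an adjusted p under 0.1 the count was also 0 (background 0.166% higher). The unadjusted p was under 0.05 for 21, all with higher levels, and for 0 with lower levels, where 8.36% of all genes tested were higher and 7% lower. DESeq2 called 15 of the 32 higher (background 2.2%), and limma-voom called 0, as it did over all genes. At an unadjusted p under 0.05 limma-voom had 23 higher and 0 lower, beside 1286 and 1043 of all 15666 genes. The log2 fold change of inhibition over control was positive in 31 of 32 (51% of all genes), with a median of 1.20 and quartiles of 0.98 and 1.45, beside a median of 0.0049 over all genes. In 17 of the 32 all inhibition grafts lay above all control grafts, and in 0 below, where 10.2% and 11% of all genes did so. The 35 genes were chosen with earlier results of these data known, so these counts describe them and are no independent test.

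**Figure D1:**
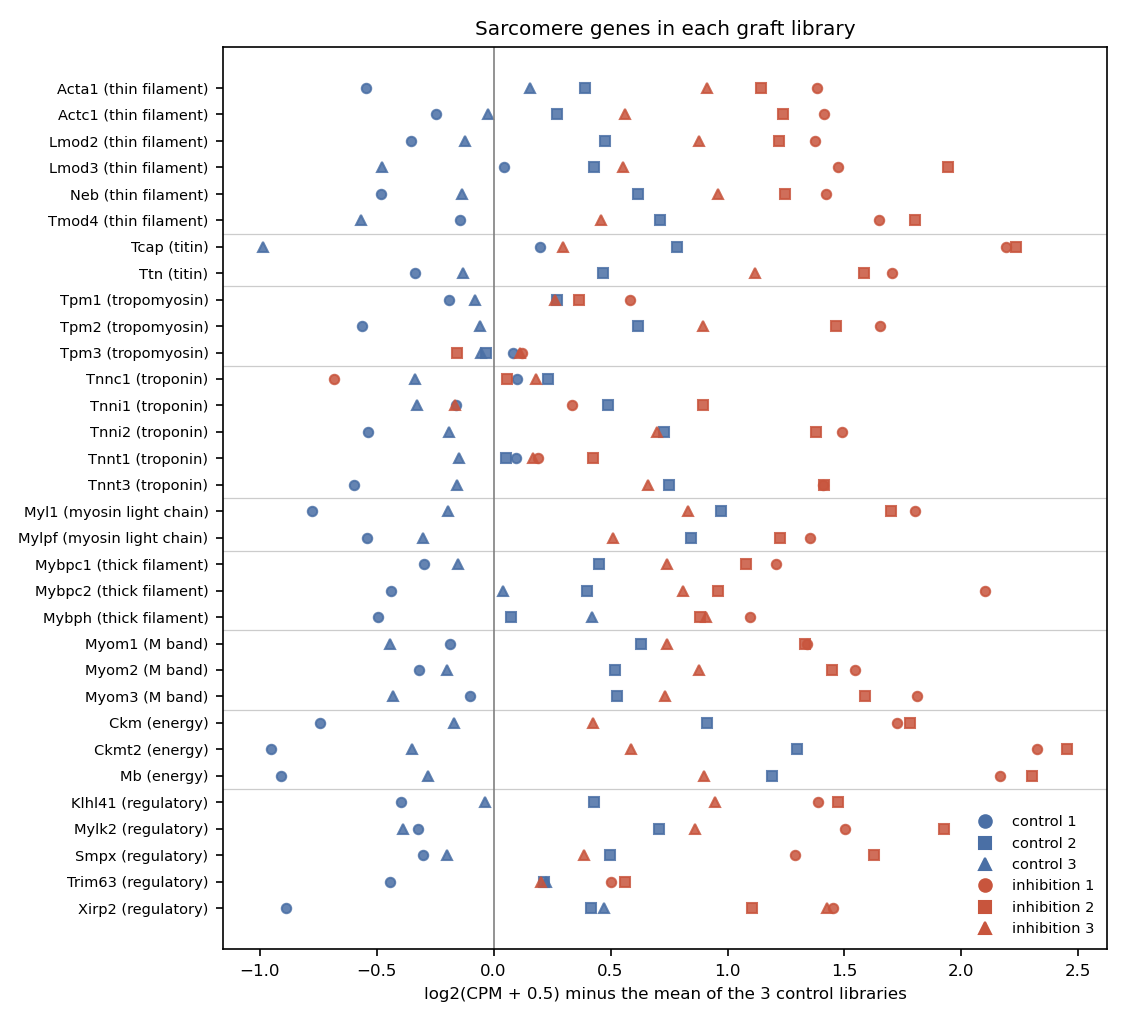
Level of each of the 32 tested sarcomere genes in each library, as log2(CPM + 0.5) less the mean of the 3 control libraries; blue marks are control and red marks inhibition libraries, with a shape for each replicate number. Control 2 is the highest control for 27 genes and inhibition 3 the lowest inhibition graft for 28.

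The order of the grafts was similar from gene to gene. Control 1 was the lowest of the 6 libraries for 22 of the 32 genes and control 3 for 8, while inhibition 1 was the highest for 18 and inhibition 2 for 13. Control 2 was the highest control for 27 genes, inhibition 3 was the lowest inhibition graft for 28, and control 2 stood above inhibition 3 for 14. Of the 15 genes whose groups overlapped, 11 would have been apart without control 2 and 12 without inhibition 3. Both grafts were picked from the order of these same genes, so the 11 and 12 describe that order and are no test. Over all genes tested, overlapping or not, 17.7% had higher groups apart without control 2 and 19% without inhibition 3.

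The calls depended on single libraries and on the fit. Without control 2, edgeR called 6 of the genes (Klhl41, Lmod2, Mybpc1, Myom2, Neb and Ttn, with a background of 0.117% higher), and 28 had groups apart (background 17.7%). Without inhibition 3 it called 6 as well (Klhl41, Lmod2, Lmod3, Myom2, Myom3 and Smpx, background 1.07%), and 29 had groups apart (background 19%). Without control 1 it called 1, Xirp2 (background 0.0616%), and it called 0 without any one of the other libraries. With no filter on low counts it called 14 (background 2.59%), and with the replicate number as a block 1, Tcap (background 0.0702%).

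Levels between genes were compared per exon length, as RPKM (CPM per kilobase of annotated exon). Acta1, skeletal muscle actin, led in both groups with 259 ± 80.2 RPKM in the control grafts and 559 ± 91.6 RPKM in the inhibition grafts (SD, n = 3). Among controls Tpm3 and Tpm1 came next with 81.9 ± 4.19 and 74.8 ± 13.0 RPKM, followed by the fast genes Tnnt3 (61.8 ± 30.7), Mylpf (55.1 ± 30.7) and Tnni2 (33.1 ± 15.96), and below Acta1 the SD ranges of neighbours in this order overlapped. In the inhibition grafts Tnnt3 (132 ± 35.9 RPKM) and Mylpf (106 ± 30.3) came after Acta1, ahead of Tpm1 (98.4 ± 11.3) and Tpm3 (83.7 ± 8.92), again with overlapping SD ranges. Titin, with 116825 exon bases the longest gene here, stood at 1.14 ± 0.347 RPKM in the control grafts and 3.11 ± 0.629 RPKM in the inhibition grafts. Lowest of the tested genes in the control grafts were Actc1 (0.286 ± 0.109 RPKM in the control grafts and 0.964 ± 0.362 RPKM in the inhibition grafts) and the slow Tnni1 (0.389 ± 0.166 RPKM in the control grafts and 0.545 ± 0.249 RPKM in the inhibition grafts).

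**Figure D2:**
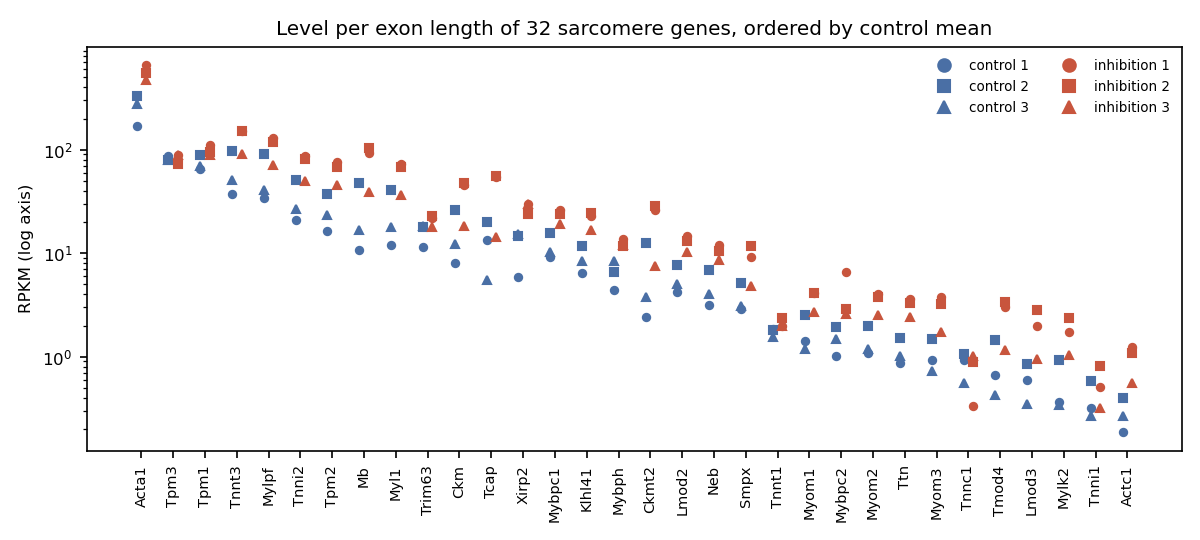
RPKM of the 32 tested sarcomere genes on a log axis, ordered by the control mean, with 1 mark per library. Acta1 stands apart at the top, and the slow troponin genes Tnnt1, Tnnc1 and Tnni1 lie in the lower part.

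The thin filament genes other than troponin and tropomyosin stood higher together in the inhibition grafts, though none passed the adjusted test. Acta1 (ENSMUSG00000031972), on chromosome 8 from 123891769 to 123894751 of GRCm38, was at 263, 504 and 428 CPM in the control grafts and 1004, 849.8 and 723 CPM in the inhibition grafts. All inhibition grafts lay above all control grafts (log2 fold change 1.11, standard error 0.26, adjusted p = 0.186). Actc1, cardiac actin, which developing and regenerating skeletal muscle also makes, was at 0.302, 0.651 and 0.436 CPM in the control grafts and 2.03, 1.74 and 0.905 CPM in the inhibition grafts, from 5 to 34 counts per library. Its groups were apart as well (log2 fold change 1.73, standard error 0.45, adjusted p = 0.180), though its coding sequence is close to that of Acta1 and reads may be split between them. Neb encodes nebulin, the giant protein that runs along the thin filament, and was at 84.8, 182 and 108 CPM in the control grafts and 318, 282 and 231 CPM in the inhibition grafts. Its inhibition grafts again lay above the controls (log2 fold change 1.15, standard error 0.31, adjusted p = 0.222).

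Lmod2 and Lmod3 encode leiomodins, which lengthen thin filaments at the pointed end, and Tmod4 the tropomodulin that caps that end. Lmod2 (ENSMUSG00000029683, chromosome 6 from 24597762 to 24605414) had the smallest p of the 32, at 8.39, 15.3 and 9.92 CPM in the control grafts and 28.9, 26.0 and 20.4 CPM in the inhibition grafts. The lowest inhibition graft stood above the highest control (log2 fold change 1.17, standard error 0.23, adjusted p = 0.160). The log2 fold changes were 1.70 for Lmod3 and 1.6 for Tmod4 (adjusted p = 0.186 and 0.238). In Tmod4 the groups overlapped, with 2.47 CPM in control 2 and 2.0 CPM in inhibition 3. All 6 of these thin filament genes had an unadjusted p under 0.05, and 5 of the 6 had groups apart, beside the 8.36% and 10.2% of all genes. Troponin and tropomyosin are not among the 6. An unadjusted p under 0.05 was found for 2 of the 5 tested troponin genes and 2 of the 3 tropomyosin genes.

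Titin and its cap differed in how evenly they were spread. Ttn (ENSMUSG00000051747, chromosome 2 from 76703980 to 76982547), which runs from the Z disc to the M band, was at 102, 179 and 118 CPM in the control grafts and 422, 389 and 281 CPM in the inhibition grafts. The groups were clearly apart (log2 fold change 1.45, standard error 0.26, adjusted p = 0.162). Tcap, telethonin, which caps titin at the Z disc, was at 12.6, 19.2 and 5.28 CPM in the control grafts and 51.6, 53.1 and 13.5 CPM in the inhibition grafts. Inhibition 3 lay within the controls, and the standard error was wide (log2 fold change 1.69, standard error 0.73, adjusted p = 0.361).

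Promoter sequence is shown for 6 of these genes, to set letters beside genes with groups apart (Acta1, Klhl41, Myom3, Xirp2 and Ttn) and 1 with a small fold (Trim63), each holding a match to a muscle or core promoter element. RefSeq promoter windows on GRCm38.p6 were found for 28 of the 35 genes, 33 windows in all, and the 250 bases before each start were searched on both strands. The E box CANNTG, the site of myogenic factors such as MyoD, was in 31 of the 33 windows (93.9%), beside 66.2% of 32851 windows of all genes. The CArG box of serum response factor was in 4 (12.1%, beside 1.47% of all) and the MEF2 site in 4 (12.1%, beside 2.92%). TATAAA, searched on the gene's strand only, was in 3 (9.09%, beside 7.59%), and no matches of different motifs overlapped (0). Capitals mark the CArG box in Acta1, the MEF2 site in Klhl41, Myom3, Xirp2 and Ttn, and TATAAA in Trim63, and each stretch ends at the base before the RefSeq start.
Acta1 (chr8:123894776-123894875, minus strand): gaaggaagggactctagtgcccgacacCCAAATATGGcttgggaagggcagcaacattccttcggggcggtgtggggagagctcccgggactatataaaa
Klhl41 (chr2:69670020-69670119, plus strand): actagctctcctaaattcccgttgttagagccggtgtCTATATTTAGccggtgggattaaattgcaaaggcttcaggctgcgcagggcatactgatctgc
Myom3 (chr4:135759615-135759714, plus strand): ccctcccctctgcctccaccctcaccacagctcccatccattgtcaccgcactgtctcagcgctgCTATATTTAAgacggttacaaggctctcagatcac
Xirp2 (chr2:67445902-67446001, plus strand): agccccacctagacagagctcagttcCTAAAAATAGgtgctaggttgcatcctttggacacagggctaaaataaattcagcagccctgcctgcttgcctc
Ttn (chr2:76982548-76982727, minus strand): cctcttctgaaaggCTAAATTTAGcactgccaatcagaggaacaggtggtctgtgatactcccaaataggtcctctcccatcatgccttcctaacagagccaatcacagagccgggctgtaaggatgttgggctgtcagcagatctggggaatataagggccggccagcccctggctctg
Trim63 (chr4:134315020-134315119, plus strand): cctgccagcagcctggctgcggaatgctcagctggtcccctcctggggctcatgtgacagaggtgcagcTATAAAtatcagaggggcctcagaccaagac
The CArG box of Acta1 lies 64 to 73 bases before the RefSeq start and the MEF2 site of Myom3 26 to 35 bases before its start. TATAAA was also matched in Acta1, 2 to 7 bases before the RefSeq start, and is not in capitals there. GENCODE begins Acta1 further downstream, at 123894751, so these distances depend on the start used. In Klhl41 the MEF2 site is 54 to 63 bases before the start, in Xirp2 65 to 74 and in Ttn 157 to 166. CArG boxes were also matched at Actc1, Myl3 and Myom1. Of these, Myl3 had 0 counts in all libraries. A match describes letters in the window and not binding.

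Tropomyosin, the rod that covers the myosin sites on actin, showed 3 different patterns. Tpm2, the beta form, was at 47.9, 109 and 68.0 CPM in the control grafts and 224, 196 and 132 CPM in the inhibition grafts. Its groups were apart (log2 fold change 1.30, standard error 0.36, adjusted p = 0.227), close to the fold of Acta1. Tpm1, the alpha form of fast muscle, was at 420.2, 580.2 and 454 CPM in the control grafts and 719, 619 and 576 CPM in the inhibition grafts, a smaller difference with groups that overlapped at control 2 and inhibition 3 (log2 fold change 0.40, standard error 0.13, adjusted p = 0.232). Tpm3, the gamma form of slow muscle, was at 528, 487 and 480.4 CPM in the control grafts and 542, 446 and 539 CPM in the inhibition grafts, with the groups mixed (log2 fold change 0.03, standard error 0.09, adjusted p = 0.894). The counts are per gene and cannot separate the muscle isoforms of these 3 genes from those of other cells.

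In troponin the fast genes had larger fold changes than the slow genes, and the ratios tested below set them against each other. Tnni2, the fast inhibitory subunit (chromosome 7 from 142441808 to 142444410), was at 31.6, 76.6 and 40.3 CPM in the control grafts and 130.2, 121 and 75.2 CPM in the inhibition grafts. Control 2 and inhibition 3 were alike and the other grafts were apart (log2 fold change 1.14, standard error 0.41, adjusted p = 0.293). Tnni1, the slow inhibitory subunit (chromosome 1 from 135779434 to 135810989), was at 1.15, 2.08 and 0.968 CPM in the control grafts and 1.82, 2.92 and 1.14 CPM in the inhibition grafts, from 19 to 57 counts per library. Its groups were mixed, with 2 of the 3 inhibition grafts below control 2 (log2 fold change 0.50, standard error 0.44, adjusted p = 0.605).

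Tnnt3, the fast tropomyosin-binding subunit (chromosome 7 from 142498836 to 142516009), was at 59.7, 153 and 81.3 CPM in the control grafts and 241, 242 and 143 CPM in the inhibition grafts. The pattern was that of Tnni2 (log2 fold change 1.10, standard error 0.42, adjusted p = 0.320). Its slow partner Tnnt1 (chromosome 7 from 4504570 to 4516382) was at 4.10, 3.97 and 3.39 CPM in the control grafts and 4.41, 5.28 and 4.34 CPM in the inhibition grafts. The inhibition grafts all lay above the controls, but by a small step (log2 fold change 0.29, standard error 0.22, adjusted p = 0.529), and its unadjusted p, unlike those of the other 16 genes with groups apart, was not under 0.05.

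The calcium-binding subunits could not be set against each other. Tnnc1, of slow muscle and heart, was at 0.966, 1.11 and 0.581 CPM in the control grafts and 0.350, 0.922 and 1.05 CPM in the inhibition grafts, with the lowest value in inhibition 1, and it was the 1 tested gene with a negative log2 fold change (log2 fold change -0.13, standard error 0.47, adjusted p = 0.910). Tnnc2, of fast muscle, was listed at 0, 0 and 0 counts in the control grafts and 1, 2 and 0 counts in the inhibition grafts, while its fast partner Tnni2 had 524 to 2356 counts per library. A count of 0 allows up to 3 counts, or 0.143 to 0.21 CPM depending on the library. Of the 800 exon bases of Tnnc2 (chromosome 2 from 164777161 to 164779967), 592 (74%) lie in exons of Ube2c on the opposite strand, and Ube2c, a mitotic gene, was at 84.4, 86.7 and 109 CPM in the control grafts and 117, 103 and 113 CPM in the inhibition grafts. How reads of overlapping genes were counted is not given in the sources used here, and the part of this overlap in the low counts was not tested.

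The myosin light chains, which stiffen and tune the neck of the myosin head, were present in their fast forms. Myl1, the fast essential chain, was at 24.7, 84.2 and 37.3 CPM in the control grafts and 150.2, 139.9 and 76.5 CPM in the inhibition grafts, and Mylpf, the fast regulatory chain, at 36.4, 95.9 and 43.1 CPM in the control grafts and 137, 125 and 76.0 CPM in the inhibition grafts. In both, control 2 stood above inhibition 3, and neither had an unadjusted p under 0.05 (log2 fold change 1.33, standard error 0.55, adjusted p = 0.348 for Myl1, and log2 fold change 0.95, standard error 0.46, adjusted p = 0.401 for Mylpf). Myl2, the slow and ventricular regulatory chain, was listed at 3, 2 and 4 counts in the control grafts and 1, 5 and 1 counts in the inhibition grafts, and Myl3, the matching essential chain, at 0 counts in all 6. Neither Myl2 nor Myl3 could be compared between groups. Their exons overlap other genes over 3.08% and 4.65% of their length.

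On the thick filament, slow and fast forms were both present and stood higher by similar folds. Mybpc1, slow myosin-binding protein C (chromosome 10 from 88518279 to 88605152), was at 41.7, 70.3 and 46.2 CPM in the control grafts and 119, 109 and 86.3 CPM in the inhibition grafts. Its groups were apart (log2 fold change 0.99, standard error 0.22, adjusted p = 0.178). Mybpc2, the fast form (chromosome 7 from 44501699 to 44524656), was at 3.68, 6.96 and 5.32 CPM in the control grafts and 23.8, 10.5 and 9.43 CPM in the inhibition grafts, with inhibition 1 at more than 2 times the other inhibition grafts. The groups were apart here too (log2 fold change 1.45, standard error 0.42, adjusted p = 0.220). Mybph, a shorter relative, was at 10.3, 15.4 and 19.7 CPM against 31.9, 27.4 and 27.9 CPM, with groups apart and a log2 fold change (adjusted p) of 0.93 (0.166). Of its exon bases 49.9% overlap Adora1 on the opposite strand, so its counts are uncertain.

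Myomesins cross-link thick filaments at the M band. Myom2, of fast fibres and heart (chromosome 8 from 15057653 to 15133541), was at 9.53, 17.4 and 10.4 CPM in the control grafts and 36.1, 33.6 and 22.5 CPM in the inhibition grafts. All inhibition grafts lay above the controls (log2 fold change 1.31, standard error 0.28, adjusted p = 0.166). Myom3, of slow and intermediate fibres, was at 5.67, 9.04 and 4.40 CPM in the control grafts and 22.7, 19.4 and 10.5 CPM in the inhibition grafts, with groups apart as well (log2 fold change 1.46, standard error 0.36, adjusted p = 0.186). Myom1, which all fibres use, had a log2 fold change of 1.11 (adjusted p = 0.227), and its groups were apart by a narrow margin, with 26.4 CPM in control 2 and 28.5 CPM in inhibition 3.

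**Figure D3:**
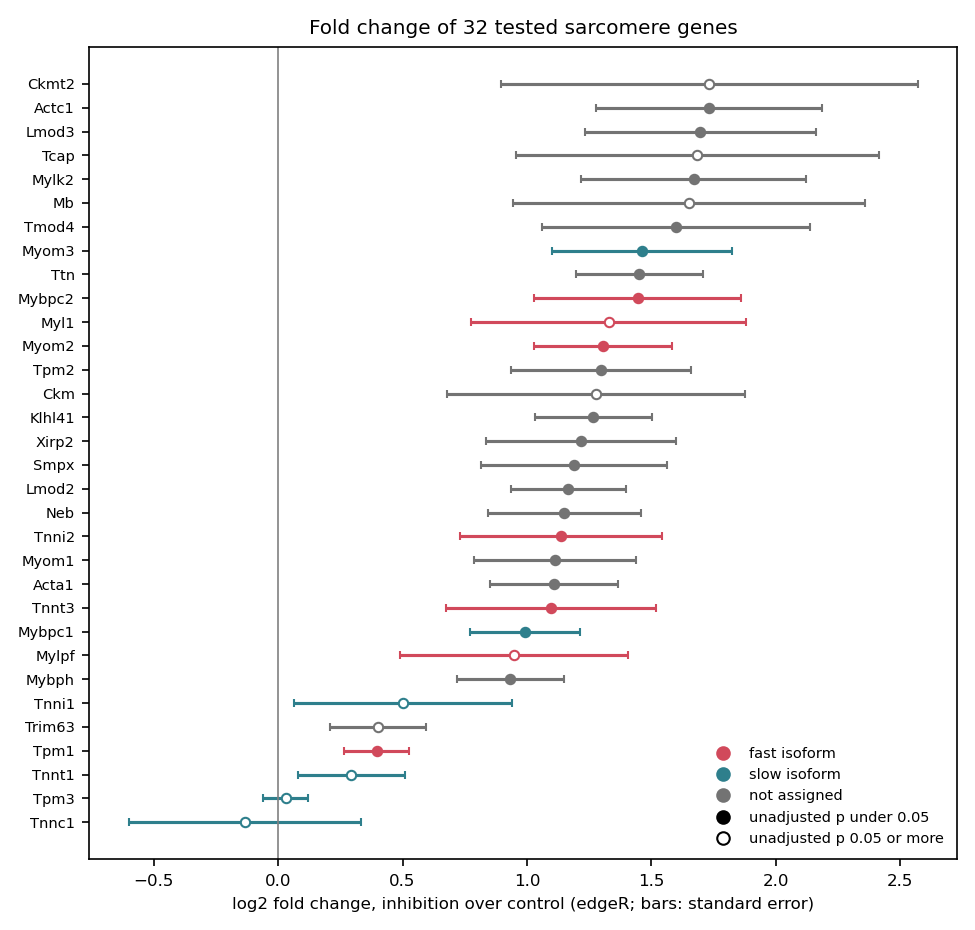
edgeR log2 fold change of inhibition over control with its standard error for the 32 tested sarcomere genes, with fast isoforms in red, slow isoforms in teal and filled marks for an unadjusted p under 0.05. The slow genes Myom3 and Mybpc1 lie among the other genes, while Tnni1, Tnnt1, Tpm3 and Tnnc1 have the lowest values together with Trim63 and Tpm1.

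Fast and slow members were then compared within each library as a log2 ratio of paralogs, (fast CPM + 0.5) over (slow CPM + 0.5). Of 7 pairs, 4 had both partners tested, and an exact permutation test of 3 against 3 libraries cannot give a two-sided p below 0.1. The ratio of Tnni2 to Tnni1 was 4.29, 4.90 and 4.80 in the control grafts and 5.81, 5.15 and 5.53 in the inhibition grafts, and every inhibition graft was above every control graft (difference of means 0.83, a fold of 1.78, exact p = 0.1). The ratio of Tnnt3 to Tnnt1 was 3.71, 5.10 and 4.40 in the control grafts and 5.62, 5.39 and 4.89 in the inhibition grafts, a difference of 0.90 with control 2 above inhibition 3 (exact p = 0.2). In both troponin pairs the mean ratio was thus higher in the inhibition grafts, and with 0.5 CPM added only troponin I kept the groups apart. Without that addition the troponin I groups overlapped too. Tnni1 then made up 0.990% of the RPKM of its pair in control 3 and 0.996% in inhibition 2.

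In the other pairs the groups overlapped and the differences were smaller. The ratio of Mybpc2 to Mybpc1 was -3.34, -3.25 and -3.004 in the control grafts and -2.30, -3.32 and -3.13 in the inhibition grafts, a difference of 0.28 carried by inhibition 1 (exact p = 0.6). The ratio of Myom2 to Myom3 was 0.70, 0.91 and 1.15 in the control grafts and 0.66, 0.78 and 1.07 in the inhibition grafts, a difference of -0.09 (exact p = 0.6). Adjusted over the 4 pairs, the exact p was 0.4 for both troponin pairs and 0.6 for the other two. No pair could have passed 0.05 in this design.

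**Figure D4:**
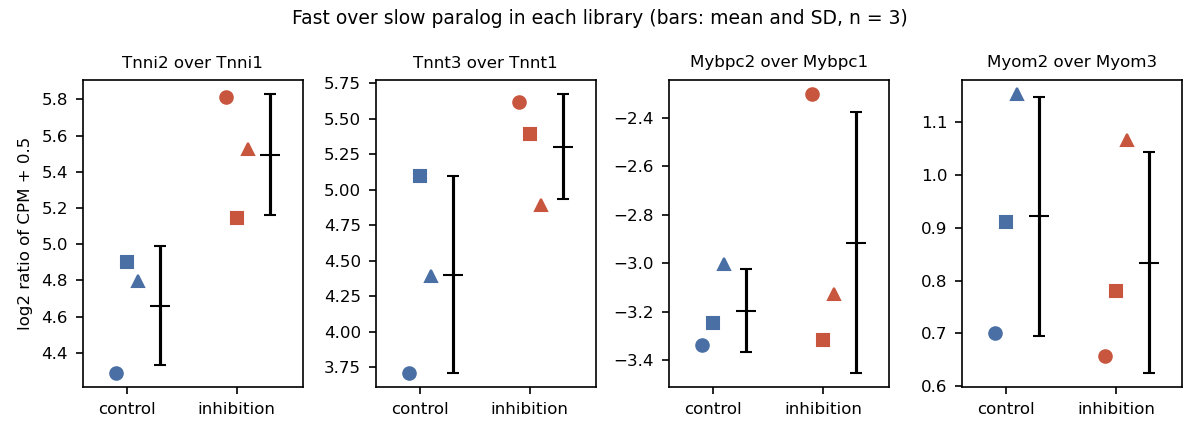
log2 ratio of fast over slow paralog in each library for the 4 pairs with both partners tested; marks are libraries, and black bars are the mean and SD of 3 libraries. With 0.5 CPM added to both partners, the troponin I ratio is higher in all inhibition grafts, and without that addition its groups overlap. The troponin T, myosin-binding protein C and myomesin ratios overlap.

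The energy genes had large fold changes and wide errors. Ckm, cytosolic creatine kinase, was at 23.7, 75.5 and 35.5 CPM in the control grafts and 133, 138 and 53.8 CPM in the inhibition grafts, and Ckmt2, its mitochondrial partner, at 3.56, 18.8 and 5.66 CPM in the control grafts and 38.7, 42.4 and 11.3 CPM in the inhibition grafts. Mb, myoglobin, the oxygen store of oxidative fibres, was at 16.2, 70.7 and 25.2 CPM in the control grafts and 139.5, 154 and 57.8 CPM in the inhibition grafts. In all of them control 2 stood above inhibition 3, with the other controls low and inhibition 1 and 2 high. The log2 fold changes (adjusted p) were 1.28 (0.393) for Ckm, 1.73 (0.402) for Ckmt2 and 1.65 (0.359) for Mb, and 0 of the 3 had an unadjusted p under 0.05. Exons of other genes on the opposite strand cover 31.9% of the exon bases of Mb and 15.5% of those of Ckm.

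The summed level of squamous epithelium markers was highest in inhibition 1 and 2, and in inhibition 3 it lay below control 2. It was 1366, 2818 and 1253 CPM in the control grafts and 3911, 4994 and 1585 CPM in the inhibition grafts. Of the 10 markers 9 had a positive log2 fold change (background 51%). The other, Krt14, was at 286, 442 and 351 CPM in the control grafts and 286, 296 and 340 CPM in the inhibition grafts (log2 fold change -0.23). An unadjusted p under 0.05 with a higher level was found for 1 of the 10 (background 8.36%). Krt13, the mucosal keratin and the largest of them in every library, was at 617, 1362 and 455 CPM in the control grafts and 1933, 2567 and 660.3 CPM in the inhibition grafts. Krt4 had the same order of grafts, at 253, 637 and 168 CPM against 1226, 1519 and 291 CPM. The part of these markers in the differences between sarcomere genes was not tested.

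The regulatory genes fell into 2 kinds. Klhl41, a kelch protein that stabilises nebulin, was at 16.5, 29.6 and 21.3 CPM in the control grafts and 57.9, 61.5 and 42.5 CPM in the inhibition grafts. Its groups were apart with a small standard error (log2 fold change 1.27, standard error 0.24, adjusted p = 0.162). Xirp2, an actin-binding protein of muscle attachment sites, was at 71.0, 176 and 183 CPM in the control grafts and 361, 284 and 355 CPM in the inhibition grafts, and here inhibition 3 was as high as inhibition 1 (log2 fold change 1.22, standard error 0.38, adjusted p = 0.257). Trim63, the ubiquitin ligase MuRF1 of muscle wasting, was at 32.4, 51.5 and 51.8 CPM in the control grafts and 62.9, 65.6 and 50.9 CPM in the inhibition grafts. Its groups overlapped and its fold was small (log2 fold change 0.40, standard error 0.19, adjusted p = 0.369). The log2 fold changes were 1.67 for Mylk2, the skeletal myosin light chain kinase, and 1.19 for Smpx, a small costamere protein (adjusted p = 0.186 and 0.236), with groups apart in Mylk2 and overlapping in Smpx.

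Setting each gene against Acta1 in the same library shows which genes kept its proportion. Of 31 genes, 21 differed between groups by less than 0.5 in log2 ratio to Acta1, 4 were higher by more (Ckmt2 0.72, Mb 0.66, Actc1 0.60, Mylk2 0.59) and 6 lower (Trim63 -0.72, Tpm1 -0.74, Tpm3 -1.12, Tnnt1 -0.86, Tnni1 -0.68, Tnnc1 -1.44). These values are descriptions without a test. Per 100 Acta1 counts, Ttn gave 38.8, 35.5 and 27.6 in the control grafts and 42.0, 45.7 and 38.9 in the inhibition grafts, the 1 gene whose inhibition grafts were all above the controls (background 0.479% of all genes), with inhibition 3 and control 1 nearly equal. The inhibition grafts were all below the controls for Trim63, Tpm1, Tpm3 and Tnnt1, which 82% of all genes were too.

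The proportion to Acta1 also varied within groups. Mb gave 6.15, 14.0 and 5.89 in the control grafts and 13.9, 18.1 and 7.99 in the inhibition grafts per 100 Acta1 counts, and Ckmt2 1.35, 3.73 and 1.32 in the control grafts and 3.86, 4.99 and 1.56 in the inhibition grafts. Control 2, inhibition 1 and inhibition 2 were high and the other grafts low. Tcap gave 4.79, 3.81 and 1.23 in the control grafts and 5.14, 6.25 and 1.87 in the inhibition grafts, lowest in replicate 3 of each group. Xirp2 gave 27.0, 34.9 and 42.8 in the control grafts and 36.0, 33.4 and 49.1 in the inhibition grafts, highest in replicate 3 of each group. Trim63 gave 12.3, 10.2 and 12.1 in the control grafts and 6.27, 7.73 and 7.04 in the inhibition grafts, split by group in the direction that 82% of all genes were. Neb gave 32.2, 36.1 and 25.2 in the control grafts and 31.7, 33.1 and 31.9 in the inhibition grafts, and Tnnt3 22.7, 30.3 and 19.0 in the control grafts and 24.0, 28.5 and 19.8 in the inhibition grafts, with overlapping groups in both.

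**Figure D5:**
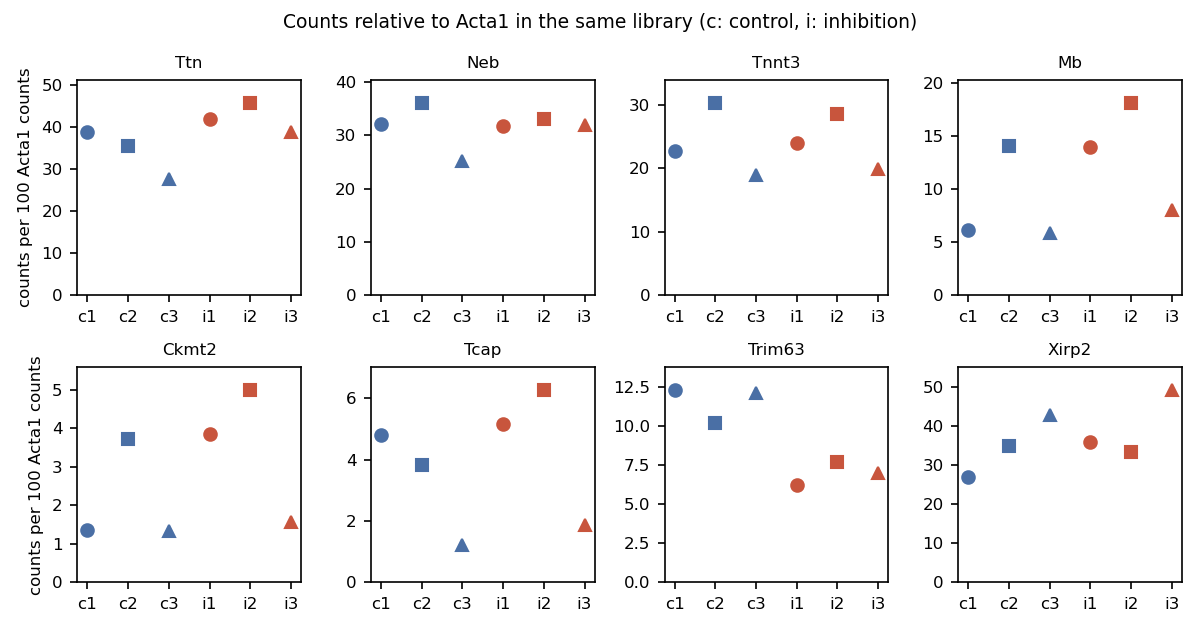
Counts per 100 Acta1 counts in each library for 8 sarcomere genes, with c for control and i for inhibition libraries and axes from 0. Trim63 is lower in all inhibition grafts, as are 82% of all genes relative to Acta1. Mb, Ckmt2 and Tcap are lowest in control 3 and inhibition 3 within their groups.

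Sarcomere genes beyond these 35 gave a similar picture. Their list was chosen with earlier results of these data known, so it is not separate support. Of 48 further genes, 40 were tested, 36 had a log2 fold change above 0 (background 51%; median over the 40, 1.03), 22 with higher and 0 with lower levels had an unadjusted p under 0.05 (background 8.36% and 7%), and 23 had inhibition grafts all above the controls (background 10.2%). The test of edgeR called 1, Synpo2, a Z disc protein, at 12.4, 16.5 and 16.7 CPM against 42.0, 34.3 and 36.0 CPM (log2 fold change 1.30, adjusted p = 0.0334, background 0.0319% higher), and DESeq2 called 17 higher (background 2.2%). Next by p were Synpo2l and Ldb3, both Z disc genes, with log2 fold changes (adjusted p) of 1.36 (0.0969) and 1.59 (0.122).

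The adult myosin heavy chains, the motors themselves, were those of fast fibres. Myh1, of type IIx fibres, was at 112, 306 and 187 CPM in the control grafts and 928, 596 and 421 CPM in the inhibition grafts, with groups apart. Myh4, of type IIb fibres, was at 43.3, 139 and 40.9 CPM in the control grafts and 297, 386 and 63.9 CPM in the inhibition grafts, and its groups overlapped. Myh2, of type IIa fibres, was at 3.56, 21.3 and 11.3 CPM in the control grafts and 45.3, 27.8 and 43.6 CPM in the inhibition grafts, with groups apart. The log2 fold changes (adjusted p) were 1.69 (0.244), 1.75 (0.417) and 1.69 (0.307). Myh7, the slow chain, had 1 count in all 6 libraries together, beside the few or no counts of Myl2 and Myl3. Actn3, the alpha-actinin of fast fibres, chosen here after its values were seen, was at 14.3, 20.8 and 16.1 CPM in the control grafts and 17.9, 14.9 and 23.5 CPM in the inhibition grafts, with mixed groups.

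Other striated and contractile cells were checked by their markers. Of 10 heart markers 6 were under 1 CPM in every library (Myh6, Nppa, Tnni3, Myl7, Mybpc3 and Ryr2). Over all libraries Nppb was at 9.72 to 22.4 CPM, Tnnt2 at 4.25 to 15.1, Myl4 at 7.84 to 17.5 and Sln at 5.43 to 31.1. The summed level of the list overlapped between groups (38.8 to 64.2 CPM and 55.1 to 64.5 CPM). Muscle precursor and regeneration markers summed to 13.9 to 25.5 CPM in the control grafts and 26.8 to 33.3 CPM in the inhibition grafts. Of 6 tested genes 5 were above 0 in log2 fold change (background 51%). An unadjusted p under 0.05 was found for 2, Myod1 and Myh8, both higher with groups apart (background 8.36% higher). Their log2 fold changes (adjusted p) were 1.45 (0.223) and 1.10 (0.230). Myog, at 6.46 to 22.5 CPM, had overlapping groups, and Pax7 was at no more than 0.28 CPM. Smooth muscle markers summed to 212 to 299.96 CPM and 402 to 457 CPM. Of 6 tested genes 5 were above 0 (background 51%) and 4 had higher levels with an unadjusted p under 0.05 (background 8.36%). Much of that sum was Des, desmin, which striated muscle expresses too, at 126, 221 and 186 CPM against 338, 355 and 304 CPM. Acta2, smooth muscle actin, had the smallest p of the list, at 33.8, 33.6 and 27.5 CPM against 44.6, 49.2 and 44.6 CPM with groups apart (log2 fold change 0.55, adjusted p = 0.122). Actg2, the enteric form, was at 1.27, 1.496 and 1.16 CPM against 2.80, 2.77 and 1.52 CPM with groups apart, and Myh11, the smooth muscle myosin, at 2.29, 2.86 and 3.77 CPM against 5.54, 7.28 and 3.72 CPM with groups that overlapped (adjusted p = 0.280 and 0.242). The log2 fold changes of the other tested smooth muscle markers were 0.10 for Smtn and -0.11 for Lmod1, with overlapping groups in both. Tagln and Cnn1 were under 1 CPM in every library and were not tested. Several of these markers are also among the further sarcomere genes above (Myh3 and Myh8 of the precursor list, Lmod1 of the smooth muscle list, and Myh6, Tnni3, Tnnt2, Myl4, Myl7 and Mybpc3 of the heart list). Of 8 fat cell markers 7 were under 1 CPM in every library and 4 (Lep, Cidec, Retn and Pck1) had 0 counts. The other, Fabp4, was at 30.8 to 56.1 CPM with overlapping groups (log2 fold change 0.07). The part of precursor and smooth muscle RNA in the sarcomere differences was not tested.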

How the data were processed

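RNA-seq of 6 grafts, 3 per group, was taken as deposited: raw read counts per Ensembl gene, whole numbers with no normalization by the authors visible. Per the submitters' processing notes, the build was mm10 and HISAT2 2.0 was among the tools. The counting program, annotation release and strand setting are not given in the sources used here. Columns naming nociceptive denervation were matched to the inhibition samples by number, and 0 columns were left unused. Symbols were matched for 55141 of 55487 IDs. Positions and exon lengths came from GENCODE M21 on GRCm38, and promoter windows from RefSeq on GRCm38.p6.

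Genes were kept with filterByExpr (count minimum 10, total minimum 15), scaled with TMM and tested over the whole table in R 4.3.3 with edgeR 4.0.16 (robust quasi-likelihood fit), with Benjamini-Hochberg adjustment over 15666 genes and no covariate. The standard error is the absolute log2 fold change over the square root of F. The fit was tested on simulated data. DESeq2 1.42.0 and limma-voom (limma 3.58.1) were alternatives, with other factors, filters, the replicate block and each library left out. Fast and slow paralogs were compared with an exact permutation test.

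Members and lists were chosen with earlier results of these data known. Values per library are given for the 7 fast and slow pairs, Acta1, Actc1, Ttn, Neb, Ckm, Ckmt2, the tropomyosins, the 4 members of smallest and 3 of largest p, and, chosen after their values were seen, Mb, Tcap, Mybph, Xirp2 and Trim63. Krt13, Des, Acta2, Actg2, Myh11, Pax7, Actn3 and Ube2c were likewise picked from their values or position. Other markers of the checked lists were also named with their values known. One count was worth 0.0477 to 0.0691 CPM.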

Additional observations from a re-analysis of the deposited data

How the results depend on the processing

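The median log2 fold change of the sarcomere genes stayed between 1.19 and 1.25 under all other factors, filters and tools, and between 0.99 and 1.53 with 1 library left out. Their calls moved more. At an adjusted p under 0.05 edgeR called 0 (background 0.0319% higher). It called 14 with no filter (background 2.59%) and 1 (Tcap) with the replicate block (background 0.0702%), and DESeq2 called 15 (background 2.2%). With 1 library left out the count ranged from 0 to 6, where 0 to 170 of all genes were called higher. Groups apart then ranged from 17 to 29 of 32. Over all genes those apart and higher also rose, from 1603 of 15666 to between 2046 of 16233 and 3026 of 15890. Over all genes the 6 calls became 1187 with no filter, 527 with DESeq2, 0 with limma-voom (unadjusted p under 0.05 for 1286 genes with higher and 1043 with lower levels), 14 with the replicate block, 33 at an adjusted p under 0.1, and 0 to 217 with 1 library left out. At an adjusted p under 0.1 edgeR still called 0 sarcomere genes. Same-numbered grafts of the 2 groups deviated together with r = -0.18, 0.33 and 0.0865, and differently numbered ones with r from -0.39 to 0.30. With 3 libraries per group these values cannot settle whether the numbers pair the grafts.

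Of the single-gene values under all alternatives, 397 kept their direction and side of the threshold, 43 passed it and 6 turned; Actc1 and Tnnc1 gave no value under the stricter filter. With 1 library left out the log2 fold change of Tnnc1 ranged from -0.4126 to 0.1652 and that of Tpm3 from -0.0253 to 0.1076. Tnnc1 turned to 0.0407 without control 2 and 0.1652 without inhibition 1. Tpm3 turned to -0.0018 and -0.0017 without control 2 or 3 and to -0.0249 and -0.0253 without inhibition 1 or 3. With 1 library left out the fast over slow difference ranged from 0.65 to 1.01 for troponin I and from 0.56 to 1.25 for troponin T, and from -0.0266 to 0.48 for myosin-binding protein C, negative without inhibition 1, and from -0.20 to 0.0285 for myomesin, positive without control 3 or inhibition 1 (0.00137). With same-numbered grafts paired, the 4 mean differences (0.83, 0.90, 0.28 and -0.0872) equal the differences of group means by construction, so they are no check. An exact test that flips the sign of each paired difference gave p of 0.25, 0.25, 1 and 0.25. With 3 pairs that test cannot give a p below 0.25. The cause of the shifts with 1 library left out was not tested. The low counts of Tnnc2, Myl2, Myl3, Tnnc1, Tnni1 and Actc1 limit the precision of their values.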
